A study of Mus musculus with 26 samples.

Results

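The genes described here are Nlrc5, which codes for a transactivator of MHC class I genes, and 9 genes whose products build, load and supply class I molecules, 10 of the 55416 genes in the table of estimated counts. They were picked by symbol: the heavy chains H2-K1 and H2-D1, their light chain B2m, the peptide transporter genes Tap1 and Tap2, the loading factor Tapbp, and the immunoproteasome subunits Psmb8, Psmb9 and Psmb10. All 10 passed the minimum of a mean of 1 CPM in each group (CPM are estimated counts scaled to library size and TMM factors) that left 13697 genes for the tests. The choice was made because Nlrc5 and several of the others had been seen to lie higher in one group, so the difference in level between the groups is given as a description, without a test.

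MHC class I molecules show peptides from inside the cell to CD8+ T cells and are made by almost every nucleated cell. The proteasome cuts proteins into peptides, with Psmb8, Psmb9 and Psmb10 taking the place of its usual catalytic subunits under interferon, and the Tap1 and Tap2 pair carries the peptides into the endoplasmic reticulum. There, tapasin (the product of Tapbp) holds the empty heavy chain with B2m until a peptide fits, and Nlrc5 acts in the nucleus, where it joins the RFX, CREB/ATF and NF-Y factors on class I promoters.

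The choroid plexus (ChP) of the 4th ventricle was studied in adult male C57Bl6J mice that had undergone either a sham operation (Ctrl, 12 mice) or an electrolytic lesion of the suprachiasmatic nuclei, the central circadian pacemaker (SCNx, 12 mice). Both groups were returned to a light-dark cycle for 1 week and then kept in constant darkness, where 1 mouse of each group was killed every 4 h from CT0 to CT44. Each library is a different mouse and carries the name of its group and time (Ctrl CT16). The KO group held 1 mouse at ZT7 and 1 at ZT18 in the light-dark cycle, of the genotype FoxJ1-ERT2-Cre+/-; Bmal1fl/fl, all given tamoxifen in the diet. The Foxj1 promoter drives this Cre in ciliated cells, and the KO tissue was cut out by laser from frozen brain and made into libraries with another kit than the pincer-dissected tissue of Ctrl and SCNx.

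The 24 Ctrl and SCNx libraries held from 38751201 to 49527655 estimated counts, and the KO libraries 17425207 and 18059227. The 8 markers of ChP epithelium summed to between 62660 and 105022 CPM in Ctrl and SCNx, and no marker was at 0. Pairs of libraries, and SCNx CT44, stood apart in their marker sums. The 5 hepatocyte genes (Alb, Apoa1 and others) summed to 1538 CPM in Ctrl CT16 and 10139 in SCNx CT0, where the group medians were 0.526 and 1.95, and the 4 astrocyte genes to 646 in Ctrl CT4 and 749 in SCNx CT32, against medians of 45.4 and 42.5. In SCNx CT44 the erythroid genes summed to 6123 CPM, the B cell genes to 10.2 and the granulocyte genes to 7.81. The SCNx medians of these sums were 498, 0.812 and 0.920. In bulk tissue, fewer cells of a type and less RNA per cell cannot be told apart.

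The promoters of the heavy and light chain genes, which moved together across Ctrl mice, are shown first, since class I genes are classically described by the order of short motifs upstream of their start. Tap1 is shown beside them because its window is almost that of Psmb9. By Spearman's rho in Ctrl, Psmb9 moved with them and Tap1 hardly did, but by Pearson's r Tap1 with H2-K1 reached 0.62. RefSeq windows of 300 bases on GRCm38.p6, from 250 before to 50 after the start, were at hand for 8 of the 10 genes, and H2-K1 had 2 of them, of which 1 is shown. None was at hand for Nlrc5 and Tap2. A set of 5 motifs was searched on both strands: ATTGG (the inverted CCAAT core), CTGATTGG (the same core with its flank, which always overlaps the first), TGACG (the CRE core), GAANNGAAA (an interferon response motif) and GGGATTCCC (a kappa B motif). Capitals mark every match, printed as read 5′ to 3′ along the gene, so that matches on the other strand appear as their reverse complement.

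H2-K1, minus strand, chr17:34000298-34000597: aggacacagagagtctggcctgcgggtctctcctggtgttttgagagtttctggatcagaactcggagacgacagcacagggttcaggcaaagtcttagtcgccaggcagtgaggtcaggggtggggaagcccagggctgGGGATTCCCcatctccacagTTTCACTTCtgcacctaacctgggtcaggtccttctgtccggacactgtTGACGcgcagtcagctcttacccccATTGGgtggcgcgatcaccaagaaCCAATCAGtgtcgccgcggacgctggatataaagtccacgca
H2-D1, plus strand, chr17:35262844-35263143: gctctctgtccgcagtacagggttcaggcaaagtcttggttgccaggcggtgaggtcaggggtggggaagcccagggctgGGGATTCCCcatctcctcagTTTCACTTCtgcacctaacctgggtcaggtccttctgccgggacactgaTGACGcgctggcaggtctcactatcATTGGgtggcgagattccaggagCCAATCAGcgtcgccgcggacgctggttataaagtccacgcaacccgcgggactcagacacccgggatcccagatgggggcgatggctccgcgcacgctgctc
B2m, plus strand, chr2:122147437-122147736: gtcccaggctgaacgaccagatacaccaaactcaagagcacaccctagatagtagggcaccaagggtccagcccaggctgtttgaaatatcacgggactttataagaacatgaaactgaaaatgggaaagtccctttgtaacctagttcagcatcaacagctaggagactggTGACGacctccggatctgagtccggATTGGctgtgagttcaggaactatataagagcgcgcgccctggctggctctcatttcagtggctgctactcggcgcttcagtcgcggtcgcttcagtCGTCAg
Tap1, plus strand, chr17:34187306-34187605: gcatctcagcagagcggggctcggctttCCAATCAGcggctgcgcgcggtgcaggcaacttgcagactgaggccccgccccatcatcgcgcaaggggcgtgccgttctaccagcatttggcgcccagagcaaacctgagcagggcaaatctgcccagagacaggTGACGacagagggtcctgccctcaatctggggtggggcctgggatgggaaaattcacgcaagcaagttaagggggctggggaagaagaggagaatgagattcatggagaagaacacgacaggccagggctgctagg

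H2-K1 and H2-D1, the heavy chain genes, held the same motifs in the same order. In the H2-K1 window the kappa B motif began at -110, counted from the start base as 0, the interferon motif at -90, the CRE core at -41 and the first inverted CCAAT core at -16. In H2-D1 they began at -170, -150, -101 and -76. Of all 32851 promoter windows in the table, 37.4% held ATTGG, 4.1% CTGATTGG, 20.8% TGACG, 7.52% GAANNGAAA and 0.353% (116 windows, those of the class I genes H2-Q6 and H2-Q7 among them) GGGATTCCC. B2m held a CRE core at -78 and an inverted CCAAT core at -53, in the order of the heavy chains. Another CRE core lay on the other strand at 44. It held no match to GAANNGAAA or GGGATTCCC, and other spellings of interferon or kappa B motifs were not searched. ATTGG and TGACG occurred together in 7.73% of all windows.

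Tap1 and Psmb9 lie next to each other in opposite directions, and their windows overlapped by 275 of 300 bases, so that the CRE core and the CTGATTGG match printed for Tap1 are also those of Psmb9. Tapbp held ATTGG at -248 and -165 and none of the other motifs. The windows of Psmb8 and Psmb10 held none of them. A match is a description of letters and not a binding site, and no match says only that these letters are not in the window.

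Per kilobase of transcript (longest transcript length per gene in GENCODE), B2m was the most abundant of the 10 genes and Nlrc5 the least. In Ctrl, B2m had a median of 105 CPM per kb (range 86.8 to 155 over 12 mice) and H2-K1 45.5 (41.9 to 73.1). Tapbp followed with 31.3 (26.0 to 37.4) and H2-D1 with 25.1 (20.6 to 43.4), and the ranges of these last overlapped. Tap2 lay at 9.12 (7.42 to 10.03), clear of its neighbours in this order. Psmb10 at 4.36 (2.99 to 5.45) and Tap1 at 3.98 (3.36 to 4.79) were not separate. Psmb8 at 2.11 (1.67 to 3.46) overlapped with Tap1 above it and with Psmb9 at 1.43 (0.901 to 2.09) under it, and Nlrc5 at 0.220 (0.139 to 0.285) lay below all of them. Of the stretches of 50 bases, the read length, 14.3% in H2-D1 and 8.79% in H2-K1 also occurred in other genes, among them other class I genes, so that Salmon divided part of their reads. This share was 2.00% for Tapbp, under 1% for Tap1 and Tap2 and 0 for the others.

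Nlrc5 (ENSMUSG00000074151) was the member with the largest difference between the groups. Over the 12 Ctrl mice its lowest level was 1.05 CPM at CT0, its median 1.67 and its highest 2.16 at CT16. In SCNx the lowest was 1.75 at CT16, the median 2.32 and the highest 4.13 at CT20. The groups overlapped, with 7 SCNx mice above every Ctrl mouse and 7 Ctrl mice below every SCNx mouse. Nlrc5 was higher in SCNx at 10 of the 12 circadian times, the exceptions being CT16 and CT24. The fitted log2 fold change of SCNx over Ctrl was 0.56 ± 0.13 (SE, n = 12 and 12), or 1.48-fold, and stayed between 0.47 and 0.60 when any 1 library was left out. Its counts were few, between 42 and 175 per library.

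The light and heavy chain genes had their highest level of each group in Ctrl CT16 and SCNx CT0, the libraries with hepatocyte transcripts. H2-K1 (ENSMUSG00000061232) ranged in Ctrl from 67.8 CPM at CT40 over a median of 73.7 to 118 at CT16, with 81.3 as the next highest. In SCNx it ranged from 65.9 at CT32 over a median of 78.5 to 179 at CT0, with 98.8 as the next highest. H2-D1 (ENSMUSG00000073411) ranged from 43.2 over 52.6 to 91.3 CPM in Ctrl and from 49.0 over 61.1 to 104.1 in SCNx. A single SCNx mouse lay above every Ctrl mouse for each of these genes.

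B2m (ENSMUSG00000060802), the light chain shared by all class I heavy chains, ranged from 74.6 over 90.4 to 133 CPM in Ctrl and from 83.8 over 96.9 to 213 in SCNx. The log2 fold changes over 12 and 12 mice were 0.21 ± 0.13 (SE) for B2m, 0.19 ± 0.13 for H2-K1 and 0.19 ± 0.12 for H2-D1. Without Ctrl CT16 and SCNx CT0 they were 0.13 ± 0.054, 0.12 ± 0.052 and 0.19 ± 0.066. Without SCNx CT0 alone they were 0.064 for B2m, 0.051 for H2-K1 and 0.10 for H2-D1. H2-D1 and B2m were higher in SCNx at 10 of the 12 times and H2-K1 at 8. The part of liver transcripts in these levels was not tested beyond relations with the hepatocyte sum. None of these passed over 12 mice, and only that of B2m in SCNx, on residuals from the 24 h curve, is given below. H2-Q10 is a class I gene known as a liver product, named here after its values had been seen. It was at 24.2 CPM in Ctrl CT16 and at 177 in SCNx CT0, but at no more than 0.973 in the other 22 libraries.

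The fitted levels of the immunoproteasome genes were higher in SCNx, most for Psmb8 and least for Psmb10. Psmb8 (ENSMUSG00000024338) ranged from 2.72 over 3.43 to 5.63 CPM in Ctrl and from 3.15 over 4.50 to 8.22 in SCNx, where 2 mice lay above every Ctrl mouse. Psmb9 (ENSMUSG00000096727) ranged from 1.22 over 1.94 to 2.83 in Ctrl and from 1.85 over 2.26 to 3.59 in SCNx, where 1 mouse lay above every Ctrl mouse and 5 Ctrl mice lay below every SCNx mouse. Psmb10 (ENSMUSG00000031897) ranged from 3.93 over 5.72 to 7.14 in Ctrl and from 5.01 over 5.60 to 7.86 in SCNx, with its medians almost equal. The log2 fold changes were 0.38 ± 0.14 for Psmb8, 0.29 ± 0.14 for Psmb9 and 0.10 ± 0.090 for Psmb10 (SE, n = 12 and 12), and 0.36, 0.29 and 0.073 without Ctrl CT16 and SCNx CT0.

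The genes of peptide transport and loading lay at nearly the same level in both groups. Tap1 (ENSMUSG00000037321) had medians of 11.8 CPM in Ctrl and 11.7 in SCNx, within 9.93 to 14.1 and 10.1 to 14.8. Tap2 (ENSMUSG00000024339) had medians of 31.4 and 29.1, within 25.5 to 34.5 and 26.2 to 35.1. Tapbp (ENSMUSG00000024308) had medians of 90.7 and 88.7, within 75.4 to 108 and 73.0 to 101. The ranges overlapped almost whole for these 3 genes. Their log2 fold changes were 0.0012 ± 0.063 for Tap1, -0.070 ± 0.049 for Tap2 and -0.041 ± 0.050 for Tapbp (SE, n = 12 and 12), and the sign for Tap1 changed with the scaling and with single libraries.

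Read over the 10 genes, the median log2 fold change was 0.19, beside 0.011 over all 13697 genes, and 8 of 10 were higher in SCNx, beside 56.5% of all genes. At least 8 of the 12 times had a higher value in SCNx for 6 of the 10, beside 21.5% of all genes. Since this contrast chose the genes, nothing is read from these counts. For the level, 0% of all genes passed edgeR's quasi-likelihood test at an adjusted p of 0.05. DESeq2 called 7 genes (0.0511%) for the level, and edgeR called 3 (0.0222%) without SCNx CT32. The macrophage markers, which include cells rich in class I and class II molecules, summed to 59.6 to 97.1 CPM in Ctrl (median 70.8) and 73.0 to 111 in SCNx (median 83.4), and the endothelial markers to 124 to 307 (median 189) and 143 to 379 (median 252). The 6 markers of T and NK cells summed to at most 2.69 CPM in any of these libraries (SCNx CT44), with Cd3d and Cd8a under a mean of 0.1.

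**Figure D1:**
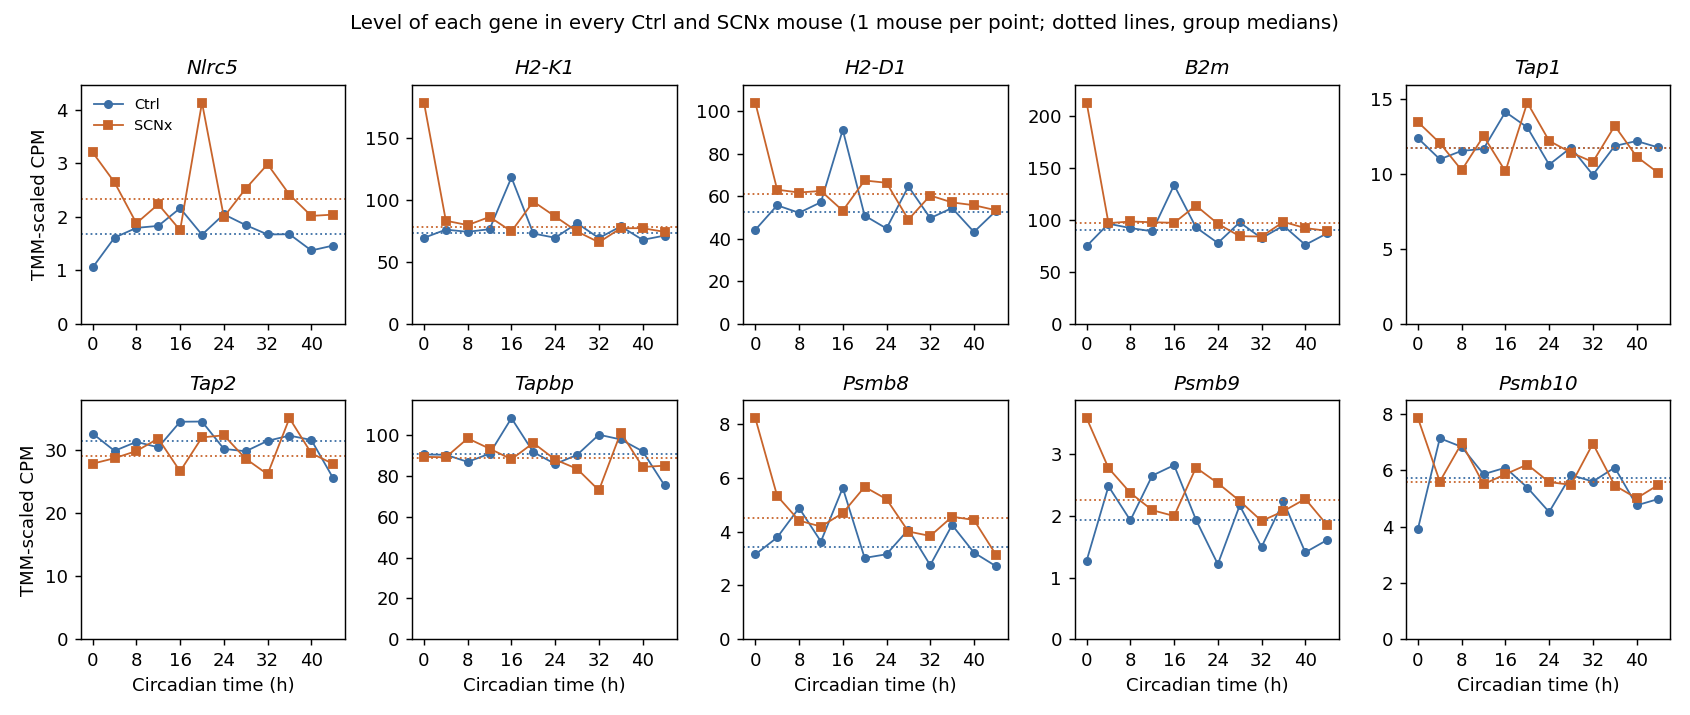
TMM-scaled CPM (vertical axis, from 0, on a scale of its own in each panel) against circadian time in hours for the 10 genes, with 1 mouse per point, Ctrl as blue circles and SCNx as orange squares, and dotted lines at the group medians. H2-K1, H2-D1 and B2m show single high points at SCNx CT0 and Ctrl CT16, whereas the Nlrc5 points of SCNx lie above those of Ctrl at 10 of 12 times.

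**Figure D2:**
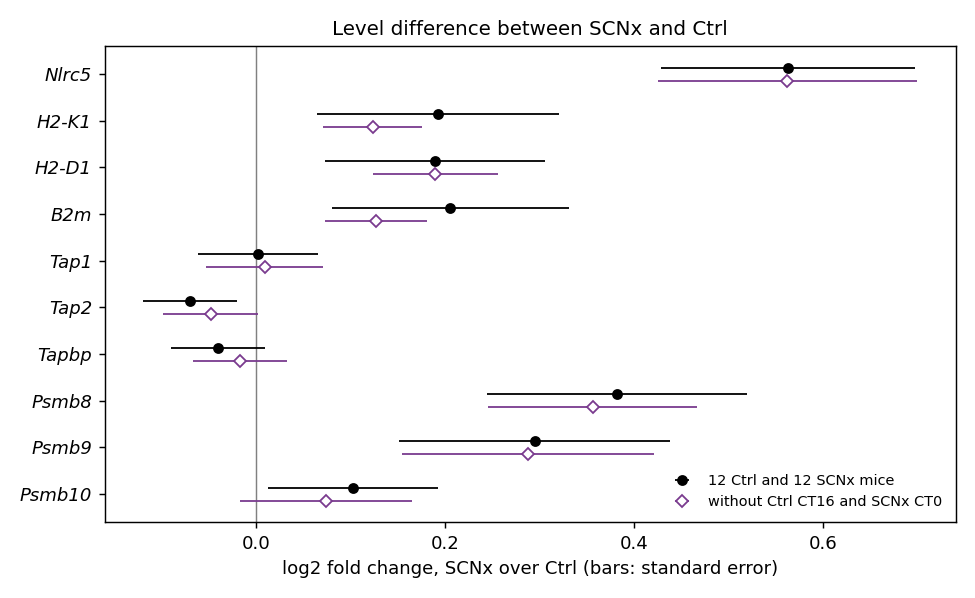
Fitted log2 fold change of SCNx over Ctrl (horizontal axis) for each gene, with bars for the standard error, over 12 and 12 mice (black circles) and without Ctrl CT16 and SCNx CT0 (open diamonds). Nlrc5 lies at 0.56 under both, and Tap1, Tap2 and Tapbp lie within 0.08 of 0.

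The next question was whether class I genes followed the 24 h rhythm that marks many genes of this tissue in sham-operated mice. In Ctrl, 10.7% of all 13697 genes were rhythmic (edgeR's quasi-likelihood test of a 24 h cosine and sine, Benjamini-Hochberg adjusted p under 0.05), and 0 of the 10 genes were. Their adjusted p-values lay between 0.200 and 0.897. Psmb10 came closest, with a log2 amplitude of 0.22 ± 0.083 (SE), a fitted peak at CT9.09 and an unadjusted p of 0.0494. The SE of each amplitude came from a least squares fit of log2 CPM within its group, whereas the p-value came from the edgeR fit of both groups. That of a difference in rhythm joined the SE of both groups. Psmb9 and Psmb8 had amplitudes of 0.28 ± 0.16 and 0.21 ± 0.13, and Nlrc5 one of 0.094 ± 0.11, a peak-to-trough fold of 1.14. In simulated data, a rhythm with an amplitude of 0.6 was recovered for 82% of changed genes in Ctrl and 84.5% in SCNx, and smaller amplitudes were not simulated.

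In SCNx no gene passed the test of a rhythm (0% of 13697), and limma-trend likewise called 0%. DESeq2 called 3.15% of all genes (432), and 0 of the 10. H2-K1 alone had an unadjusted p under 0.05 (0.0469, adjusted 0.331), with an amplitude of 0.30 ± 0.14 and a fitted peak at CT23.3. Without SCNx CT0, its highest library, the amplitude was 0.090, and without SCNx CT0 and Ctrl CT16 the adjusted p was 0.514. The rhythm differed between SCNx and Ctrl for 2.12% of all genes and for 0 of the 10, with adjusted p-values of 0.304 to 0.998. Psmb9 had the smallest of these, a difference of 0.52 ± 0.18 on the log2 scale with an unadjusted p of 0.0389.

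Rhythms did appear among the general folding chaperones that class I molecules share with other glycoproteins. Of 12 genes of loading and trimming outside the 10, 4 were rhythmic in Ctrl and 0 in SCNx, and for 3 the rhythm differed between the groups. Calr, the calreticulin gene, ranged in Ctrl from 693 over a median of 1291 to 1900 CPM, with an amplitude of 0.60 ± 0.077 (edgeR adjusted p = 1.54e-05) and a peak at CT21.6. In SCNx it ranged from 930 over 1200 to 1572 with an amplitude of 0.25 ± 0.050 (adjusted p = 0.151), and its rhythm differed between the groups (adjusted p = 0.00419). Pdia3, the disulfide isomerase that partners tapasin, had amplitudes of 0.39 ± 0.054 in Ctrl and 0.21 ± 0.044 in SCNx (adjusted p of the difference 0.0179). Canx, the calnexin gene, had amplitudes of 0.18 ± 0.034 and 0.096 ± 0.029, and its difference (adjusted p = 0.0370) was lost without Ctrl CT16 and SCNx CT0 (0.0602) and, in 15 of the 24 fits that left out 1 library, without that library (up to 0.0881). Npepps, a cytosolic aminopeptidase, had an amplitude of 0.10 ± 0.014 in Ctrl (adjusted p = 0.0188, and 0.0674 without Ctrl CT44), and its difference did not pass (0.582). DESeq2 called the SCNx rhythms of Calr and Pdia3 as well, at 0.0256 and 0.0177.

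**Figure D3:**
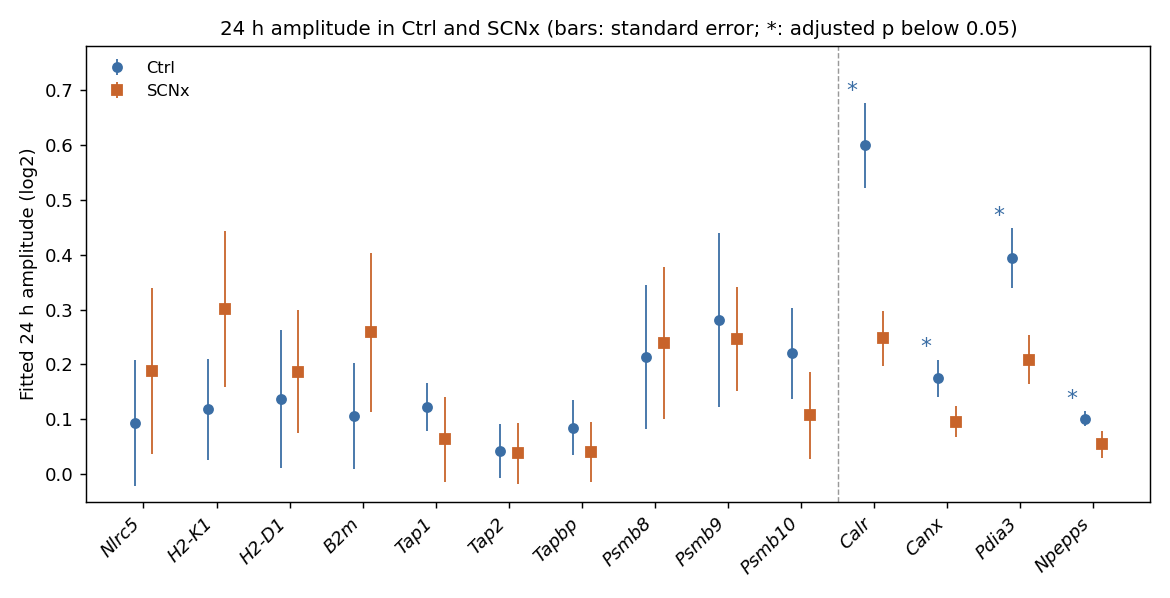
Fitted 24 h amplitude on the log2 scale (vertical axis) in Ctrl (blue circles) and SCNx (orange squares), with bars for the standard error, for the 10 genes and, right of the dashed line, the 4 rhythmic genes of loading and trimming. Stars mark an adjusted p under 0.05, which only the Ctrl values of Calr, Canx, Pdia3 and Npepps carry.

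The mice were killed over 2 cycles of darkness, so the second cycle (CT24 to CT44) was set against the first in each group. No gene passed the test in Ctrl or in SCNx (0% and 0% of 13697, edgeR's quasi-likelihood test), and therefore 0 of the 10. In each group 9 of the 10 were lower in the second cycle, beside 53.1% of all genes in Ctrl and 46.9% in SCNx, with Nlrc5 the exception in Ctrl and Tap2 in SCNx. In SCNx the log2 difference was -0.36 ± 0.15 for H2-K1 (unadjusted p = 0.0274, adjusted 0.219) and -0.36 ± 0.16 for B2m (0.0333, adjusted 0.234), and the first cycle holds SCNx CT0. Without that library the differences were -0.17 for H2-K1 and -0.16 for B2m. DESeq2 called 335 of the 9979 genes to which it gave an adjusted p (3.36%) for the cycles in SCNx and none of the 6 members among them, and it gave none to Nlrc5, Psmb8, Psmb9 and Psmb10. In Ctrl the largest was -0.36 ± 0.17 for Psmb9 (unadjusted p = 0.05004, adjusted 0.850). The change from cycle to cycle did not differ between the groups for any of the 10, with adjusted p-values from 0.522 to 0.960, in a test added after the others had been seen.

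Because each mouse gave 1 library, the genes could be followed against each other over 12 mice of a group. Nlrc5 was set against each of the other 9 genes in Ctrl and in SCNx, 18 relations, and 0 passed after Benjamini-Hochberg adjustment (permutation tests, two-sided). In Ctrl the highest by r was with B2m, with r = 0.62 (permutation p = 0.0448, adjusted 0.202) and rho = 0.54 (p = 0.0750, adjusted 0.270), and r was 0.18 without the 2 mice farthest from the median of Nlrc5. By rho the highest was with H2-K1, at 0.64 (permutation p = 0.0281, adjusted 0.267). In SCNx the highest was with Tap1, with r = 0.73 (permutation p = 0.00616, adjusted 0.111) and rho = 0.63 (p = 0.0322, adjusted 0.267), and r was 0.40 without the 2 farthest mice. Without Ctrl CT4 and SCNx CT32 the relation of Nlrc5 with Tap1 in SCNx passed. The relations of Nlrc5 with the heavy chains, B2m and the immunoproteasome genes were positive in both groups, with r from 0.42 to 0.62. Without the 2 mice farthest from the median of Nlrc5 they lay between 0.10 and 0.35 in Ctrl. In SCNx, without SCNx CT0 and SCNx CT20, r was -0.35 for H2-K1, -0.54 for B2m and -0.10 for Psmb8. It was 0.072 for H2-D1, 0.022 for Psmb9 and 0.15 for Psmb10. The positive sign in SCNx was thus lost for H2-K1, B2m and Psmb8 without these mice, and r was lower for the others.

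Among the other 9 genes the pairs were examined after these values had been seen, 36 pairs in each group, and 17 of the 72 passed both by r and by rho after adjustment. By rho, the genes in Ctrl fell into a set of H2-K1, H2-D1, B2m, Psmb8, Psmb9 and Psmb10 and a set of Tap1, Tap2 and Tapbp. The sets were drawn from these same values, so the ranges within and between them describe the split and do not test it. Within the first set rho ranged from 0.58 to 0.94 over 15 pairs (median 0.77), and within the other from 0.38 to 0.73 over 3 pairs. Between the sets it ranged from -0.23 to 0.35 over 18 pairs. Without Ctrl CT16 it ranged from 0.45 to 0.92 within the first set and from -0.54 to 0.15 between the sets. The split does not hold on every measure: by r, Tap1 with H2-K1 reached 0.62 and Tapbp with H2-K1 0.60 (0.14 and 0.13 without Ctrl CT16). On residuals from the 24 h curve, Tap1 passed by r with Psmb8 (r = 0.80, adjusted permutation p = 0.00624), H2-K1 (r = 0.68, 0.0186) and B2m (r = 0.66, 0.0407). The closest pair was H2-D1 with H2-K1, with r = 0.96 (permutation p = 2e-05, adjusted 0.00048) and rho = 0.94, and r was 0.86 without the 2 mice farthest from the median of H2-K1. Psmb9 and Tap1, which share their promoter window, had rho = 0.22 in Ctrl (0.62 on residuals from the 24 h curve) and 0.66 in SCNx, and Psmb9 and H2-D1 had 0.90 in Ctrl and 0.76 in SCNx.

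In SCNx the ranges of rho overlapped. Within the first set rho ranged from 0.34 to 0.87, and between the sets from -0.31 to 0.89. Without SCNx CT0 it ranged from 0.15 to 0.84 within the first set and from -0.23 to 0.95 between the sets. The difference between the groups was not tested. B2m with H2-K1 had r = 0.98 and rho = 0.76, and r was 0.73 without SCNx CT0 and SCNx CT20. Without these mice r fell from 0.92 to 0.54 for H2-D1 with H2-K1 and from 0.57 to -0.40 for Psmb10 with H2-K1. Over the first set, r without the 2 farthest mice ranged from -0.40 to 0.81. B2m with Tapbp had rho = 0.89 but r = 0.27, and r was 0.84 without SCNx CT0 and SCNx CT20. All pairs share the depth and composition of their libraries.

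**Figure D4:**
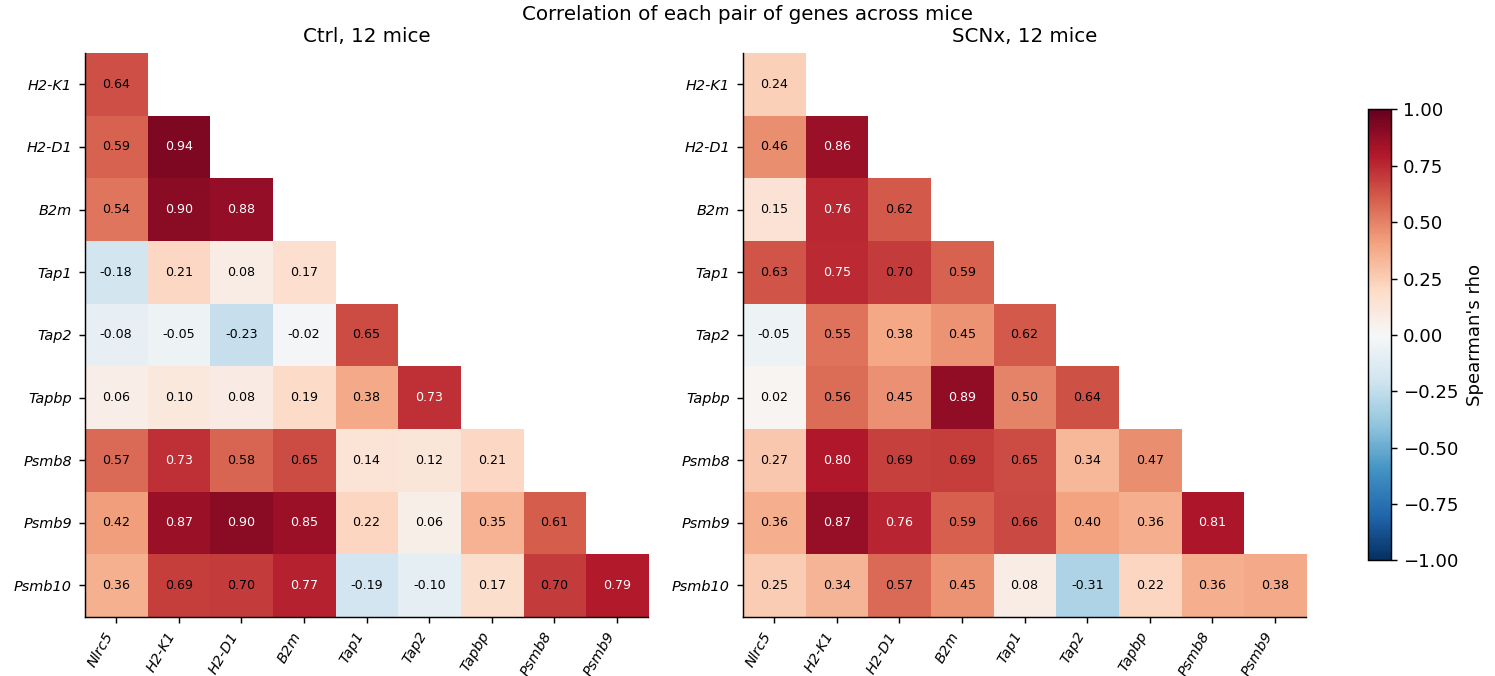
Spearman's rho across 12 mice for every pair of the 10 genes in Ctrl (left) and SCNx (right), written in each square and coloured from blue (-1) over white (0) to red (1). In Ctrl the squares of Tap1, Tap2 and Tapbp against the heavy chains, B2m and the immunoproteasome genes are pale, with rho from -0.23 to 0.35, and in SCNx more of them are red.

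Each of the 10 genes was also set against 13 summed marker lists in each group, 260 relations, of which 0 passed after adjustment (permutation tests, two-sided). By r the largest value was 0.90 in SCNx and 0.81 in Ctrl. The strongest by rho lay in Ctrl, with the macrophage sum. H2-D1 had rho = 0.87 (permutation p = 0.00054, adjusted 0.0750) and r = 0.73, and r was 0.89 without the 2 mice farthest from the median of the sum, Ctrl CT4 and Ctrl CT16. B2m had rho = 0.84, H2-K1 0.83, Psmb10 0.84 and Psmb9 0.80 with the same sum, with adjusted permutation p-values from 0.0750 to 0.0852. Without Ctrl CT4, whose macrophage sum was the highest of its group, the relation passed for H2-K1 (r = 0.81, adjusted permutation p = 0.0026), H2-D1 (r = 0.88, 0.0065) and B2m (r = 0.86, 0.0104). H2-D1 with the endothelial sum (rho = 0.83) and Psmb10 with the fibroblast sum (rho = 0.83) had the same adjusted permutation p of 0.0750. Without the 2 mice farthest from the median of the sum, H2-D1 (r = 0.85, adjusted permutation p = 0.0052), H2-K1 (r = 0.73, 0.0325) and Psmb9 (r = 0.87, 0.0312) passed with the endothelial sum. H2-D1 passed there with the T and NK sum (r = 0.82, 0.0325), and H2-K1 and H2-D1 with the macrophage sum. In SCNx this pattern was not seen, and rho over the 10 genes ranged from -0.66 to 0.63 with the macrophage sum, from -0.66 to 0.12 with the endothelial sum and from -0.37 to 0.29 with the fibroblast sum. Nlrc5 had rho = 0.38 with the macrophage sum in Ctrl (permutation p = 0.227) and 0.63 in SCNx (p = 0.0314, adjusted 0.221). On residuals from the 24 h curve 9 relations passed by r. Tapbp with the epithelial sum passed in SCNx (r = 0.91, adjusted permutation p = 0.0121). B2m with the hepatocyte sum passed there too (r = 0.89, adjusted permutation p = 0.0348). The others lay in Ctrl. Those with the macrophage sum were H2-K1, H2-D1, B2m and Psmb9. H2-D1 and B2m passed with the endothelial sum, and B2m with the erythroid sum. The part of macrophage, endothelial, fibroblast or hepatocyte content in the levels of these genes was not tested beyond these relations.

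By Spearman correlation over all 24 libraries, a description to which the group difference itself contributes, the tested genes most like Nlrc5 were ENSMUSG00000115801 (0.80), Gbp4 (0.78), Samhd1 (0.76), Il4ra (0.74) and Smurf1 (0.73). Gbp4 is an interferon-inducible guanylate-binding protein, Samhd1 a dNTP hydrolase that restricts viruses, Il4ra a chain of the receptors for IL-4 and IL-13, and Smurf1 a ubiquitin ligase. H2-D1 ranked 22 of 13697 genes (0.62), Psmb8 32 (0.61), H2-K1 155 (0.51), Psmb9 177 (0.50) and B2m 291 (0.47). Psmb10 ranked 1763, Tap1 2752, Tapbp 8965 and Tap2 10206.

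Other genes of the pathway were read by lists. Over all 13697 genes, 56.5% lay higher in SCNx and the median log2 fold change was 0.011. Of 10 tested genes among 17 listed other class I genes, 6 lay higher in SCNx and the median log2 fold change was 0.14. These 10 include H2-Q10, which reached the minimum mean of 1 CPM only through Ctrl CT16 and SCNx CT0. Of 7 class II genes 6 were higher with a median of 0.31, and Ciita, the class II transactivator and a relative of Nlrc5, named after its values had been seen, stood at 0.67 ± 0.22. Of 25 genes of the class I enhanceosome and of interferon signalling 14 were higher with a median of 0.033, of 19 interferon-induced genes 14 with a median of 0.071, of the 12 of loading and trimming 6 with a median of 0.00025, and of the 3 constitutive catalytic subunits that the immunoproteasome replaces 1 with a median of -0.0082. None of the genes in these lists, apart from the 4 of loading and trimming above, passed a test of a rhythm, of a difference in rhythm or of a change between cycles.

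In the KO mice the floxed gene Arntl (Bmal1) stood at 10.6 CPM at ZT7 and 9.36 at ZT18, within the 2.01 to 39.4 of Ctrl, and counts over the whole gene do not read the deleted part. Nlrc5 stood at 2.41 CPM at ZT7 (42 counts, exact Poisson 95% interval 1.74 to 3.26, counting error only) and 2.16 at ZT18 (39 counts, 1.54 to 2.95). H2-K1 stood at 52.1 and 58.2 CPM, H2-D1 at 36.8 and 48.7, and B2m at 57.4 and 72.3. Tap1 stood at 5.85 and 7.03, Tap2 at 15.6 and 20.1, and Tapbp at 66.3 and 86.3. Psmb8 stood at 4.25 and 5.87, Psmb9 at 1.78 and 1.83, and Psmb10 at 4.82 and 4.26. With 1 mouse per time no test was possible, and these CPM were scaled by library size alone. The KO libraries held 46243 and 51700 CPM of epithelial markers and 696 and 821 of astrocyte markers. By the paper, the KO mice were also older, were kept at another facility and gave RNA of lower integrity than Ctrl and SCNx. The genotype cannot be told apart from these, from the tamoxifen, or from the kit, the dissection and the light conditions.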

How the data were processed

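RNA of the ChP of 12 Ctrl, 12 SCNx and 2 KO mice was sequenced. The authors ran the single-end reads of both surgical groups through nf-core/rnaseq on GRCm39 and deposited Salmon (version 1.9.0) estimated counts per gene, not normalized, and estimated counts for KO in a table of their own. They were rounded here, and CPM were scaled with TMM factors of 0.955 to 1.08 (KO by library size alone). Only genes whose mean reached 1 CPM in each surgical group entered edgeR 4.0.16 (R 4.3.3), modelled per group by a mean and a harmonic pair of 24 h period, with quasi-likelihood tests and Benjamini-Hochberg adjustment over all tested genes at 0.05. The level used a mean per group, and the cycles a term for the second cycle per group. Correlations used log2 CPM with Python 3.11.15, numpy 2.4.6 and 100000 permutations. Fits were tested on simulated counts for 13697 genes, and a log2 difference of 1 in level was recovered for 92.5% of 200 changed genes.

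The 10 genes, the pathway and marker lists and the motifs were chosen with earlier results of these data known. Named genes are the 10, the 5 most like Nlrc5, and every listed pathway gene past a test of rhythm or cycle. Any other is named with a remark. Alternatives were DESeq2 1.42.0, limma 3.58.1, other scalings and minimum levels, replicate blocks and left-out libraries. Precision is limited by 12 libraries a group with 1 mouse per time, and for Nlrc5 and Psmb9 also by low counts. Where mice carry 1 library each, p-values measure the spread between mice.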

Additional observations from a re-analysis of the deposited data

How the results depend on the processing

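No rhythm, difference in rhythm or change between cycles of the 10 genes passed in edgeR, DESeq2 or limma-trend. None passed under other scalings or minimum levels, without the library pairs with liver or neural transcripts, or with any 1 library left out. Of these tests, a replicate block was used for the cycles only, and separate fits per group for the rhythm of each group only. None of the 10 passed there. With a minimum mean CPM of 5, Nlrc5, Psmb8 and Psmb9 were not tested. DESeq2 gave no adjusted p for the cycles in SCNx to Nlrc5, Psmb8, Psmb9 and Psmb10. The count of the 10 genes higher in SCNx was 8, and with a minimum mean CPM of 5 it was 5 of the 7 genes left, since fewer genes were tested. With any 1 library left out it stayed between 7 and 8, and with circadian time as a replicate block it was 7. The circadian times do not pair the mice: of 12 same-time pairs, 6 had deviations from the group means correlated over 0.1, with a median of 0.092, and the block changed no call. The sign of the level difference for Tap1 changed in 16 alternatives, and that of the change between cycles, never past the test, in 10 for Nlrc5, 3 for Tapbp and 2 for H2-D1 in Ctrl and in 3 for Tap2 and 1 for Nlrc5 in SCNx. Relations that passed after adjustment numbered 1 of 18 with Nlrc5 without Ctrl CT4 and SCNx CT32, and with marker sums 6 of 260 without the 2 farthest mice, 3 without Ctrl CT4 and SCNx CT32 and 9 on residuals from the 24 h curve, against 0 as reported, and the cause was not tested. Of the 72 pairs, 25 passed by r, against 8 without the 2 farthest mice and 15 without Ctrl CT16 and SCNx CT0, with fewer mice in each. Without the minimum level, which raises the number of genes adjusted over and used trended dispersions, Calr, Canx and Pdia3 lost the difference in rhythm (adjusted p of 0.152, 0.697 and 0.339) and Canx and Npepps their rhythm in Ctrl (0.538 and 0.326). The rhythm of Npepps was also lost without Ctrl CT44 (0.0674), and the difference for Canx in 15 of 24 fits without 1 library. Depth limits Nlrc5, with 42 to 175 counts per library, and Psmb9, with 51 to 148.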
